A study of Mus musculus with 3 samples.

Results

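The imprinted growth genes Igf2, H19, Igf2r, Mest, Cdkn1c, Dlk1, Meg3, Peg3, Plagl1 and Grb10 were followed through the embryonic mouse thymus, as 10 of the 27998 genes counted. The rule lists the genes by name and sets no threshold on their values. Their unique molecular identifier (UMI) counts were summed over cells with at least 1 UMI of Epcam, Pdgfra, Cdh5 or Ptprc and none of the other 3 of these markers, which stand for epithelial, mesenchymal, endothelial and hematopoietic cells.

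In imprinted genes the copy inherited from one parent is read and the other is kept silent by marks laid down in the germ line. Many of these genes act on fetal growth: as a rule those read from the father's copy promote it and those read from the mother's copy restrain it. Igf2, Mest, Dlk1, Peg3 and Plagl1 are read from the paternal copy, and H19, Meg3, Cdkn1c, Igf2r and Grb10 mainly from the maternal copy. All embryos were of 1 inbred background, so the counts do not tell the parental copies apart.

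The study profiled thymic lobes of C57BL/6 embryos at embryonic days 13 to 13.5 by droplet 3′ single-cell RNA sequencing, with 1 library for each genotype. The control was wild type. The library labelled Tbx1neo2/neo2 came from embryos homozygous for a Tbx1 allele carrying an inserted neomycin cassette, a mouse model of DiGeorge syndrome with a small thymus, and the library labelled Foxn11089/1089 from embryos homozygous for a short deletion in Foxn1, the transcription factor of thymic epithelium, which also leaves the thymus small. The number of embryos behind a library is not given in the sources used here. With 1 library per genotype no difference between genotypes could be tested, genotype and preparation cannot be told apart, and every interval given is a 95% interval for counting error only.

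After filtering, 5932, 5516 and 11772 cells remained in the control library and the libraries labelled Tbx1neo2/neo2 and Foxn11089/1089, an order kept for all values that follow. Epcam-positive cells numbered 2115, 843 and 4184, Pdgfra-positive cells 979, 1458 and 2574, Cdh5-positive cells 48, 98 and 85, and Ptprc-positive cells 847, 194 and 302. Each class's own marker list summed to between 1958 and 5528 UMIs per 1000000 UMIs of the class (CPM). Median depth was highest in the library labelled Tbx1neo2/neo2, at 16033, 39970 and 19126 UMIs per Epcam-positive cell. The median mitochondrial share was lowest in the control, at 2.55%, 5.59% and 5.47% in Epcam-positive and 2.76%, 6.36% and 5.70% in Pdgfra-positive cells. A list of red blood cell markers was at 1925, 6062 and 19158 CPM in Epcam-positive and 3753, 2980 and 15947 CPM in Pdgfra-positive cells. The part of these differences in the ratios below was not tested. Pairs of libraries shared 16, 17 and 24 cell barcodes. Tbx1 was not lower in the library that carries the modified allele: it was at 5.37, 5.22 and 3.76 CPM in Pdgfra-positive and at 0.759, 4.73 and 5.72 in Epcam-positive cells. Foxn1 was at 85.0, 105 and 150.5 CPM in Epcam-positive cells. Where the altered stretch of either gene lies relative to the counted 3′ end was not analysed here, so neither level checks a label.

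A gene is called higher or lower at a 2-fold difference from the control, with at least 30 UMIs over both libraries. The median of all genes was itself above the control, by 0.36 to 0.40 on the log2 scale for the library labelled Tbx1neo2/neo2 and by 0.16 to 0.21 for the library labelled Foxn11089/1089, and the calls that differ relative to that median are given after the counts. Red blood cells, with at least 50% hemoglobin UMIs, were used as a rough guide to the level reached by RNA free in the suspension. They could overlap the marker classes and hold doublets, and their median depth was below that of Epcam-positive cells. The level of free RNA in the other classes was not measured. Levels are compared between cells and libraries and not between genes.

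In Epcam-positive cells the genes lay mostly above the control. In the library labelled Tbx1neo2/neo2, 4 of the 10 were called higher (Meg3, Dlk1, Peg3 and Plagl1) and none lower, against 16.6% of all genes tested called higher and 4.91% lower (21.5% either way). In the library labelled Foxn11089/1089, 6 were called higher (the same 4 with H19 and Cdkn1c) and none lower, against 15.0% higher and 9.03% lower (24.1%). Relative to the median of all genes the counts called higher were 3 and 4. The median log2 ratio of the 10 genes was 0.84 and 1.05, beside 0.39 and 0.21 over all genes.

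Pdgfra-positive cells, where most of the 10 genes had their highest level, showed fewer differences. Meg3 alone was called higher in both libraries, with 18.5% and 5.81% of all genes called higher (22.4% and 10.2% either way), and Igf2r alone was called lower, in the library labelled Foxn11089/1089, where 4.43% of all genes were, against 3.86% in the other. In Cdh5-positive cells of the library labelled Tbx1neo2/neo2, 6 genes were called higher (Igf2, H19, Dlk1, Meg3, Peg3 and Plagl1; 25.3% of all genes) and Mest lower (4.75%, 30% either way), and in the library labelled Foxn11089/1089 only Plagl1 of the 9 genes with enough UMIs was called, higher (9.72%, beside 4.89% lower and 14.6% either way). In Ptprc-positive cells 4 genes were called higher (Meg3, Peg3, Plagl1 and Grb10; 14.9%) and Mest lower (3.0%, 17.9% either way) in the library labelled Tbx1neo2/neo2, and 5 were higher (Cdkn1c, Dlk1, Meg3, Peg3 and Plagl1; 11.4%, beside 5.96% lower and 17.4% either way) in the library labelled Foxn11089/1089. Red blood cell levels are given with each gene, and several of these hematopoietic values lay near them. In the study's own clustering the hematopoietic clusters also differed in proportion between the genotypes. The part of makeup in any ratio of Ptprc-positive cells was not tested.

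Relative to the median of all genes 9 calls differed. Plagl1 in Epcam-positive cells of both libraries (log2 0.79 and 0.86), Cdkn1c in Epcam-positive (0.82) and Ptprc-positive cells (0.83) of the library labelled Foxn11089/1089, and Igf2 in Cdh5-positive (0.64) and Peg3 in Ptprc-positive cells (0.68) of the library labelled Tbx1neo2/neo2 no longer reached 2-fold. Mest in Pdgfra-positive cells of the library labelled Tbx1neo2/neo2 (-1.26), and Cdkn1c in Cdh5-positive (-1.06) and Igf2 in Ptprc-positive cells (-1.02) of the library labelled Foxn11089/1089, became lower by 2-fold.

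Transcripts of other cell types also differed between libraries in the Cdh5-positive cells. The mesenchymal list was at 22.4, 162 and 25.9 CPM, the pericyte list at 13.2, 372 and 26.7 CPM and the collagen gene Col3a1 at 14.5, 96.3 and 17.9 CPM. Dlk1 in these cells was at 0.202%, 2.13% and 0.697% of its mesenchymal level, below the 0.643%, 3.56% and 0.754% of Col3a1. In the 43, 77 and 77 cells with under 2 UMIs of each list, the log2 ratios of the library labelled Tbx1neo2/neo2 were 1.01 for Igf2, 2.15 for H19, 2.85 for Dlk1, 3.67 for Meg3, 1.09 for Peg3 and 1.66 for Plagl1.

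**Figure D1:**
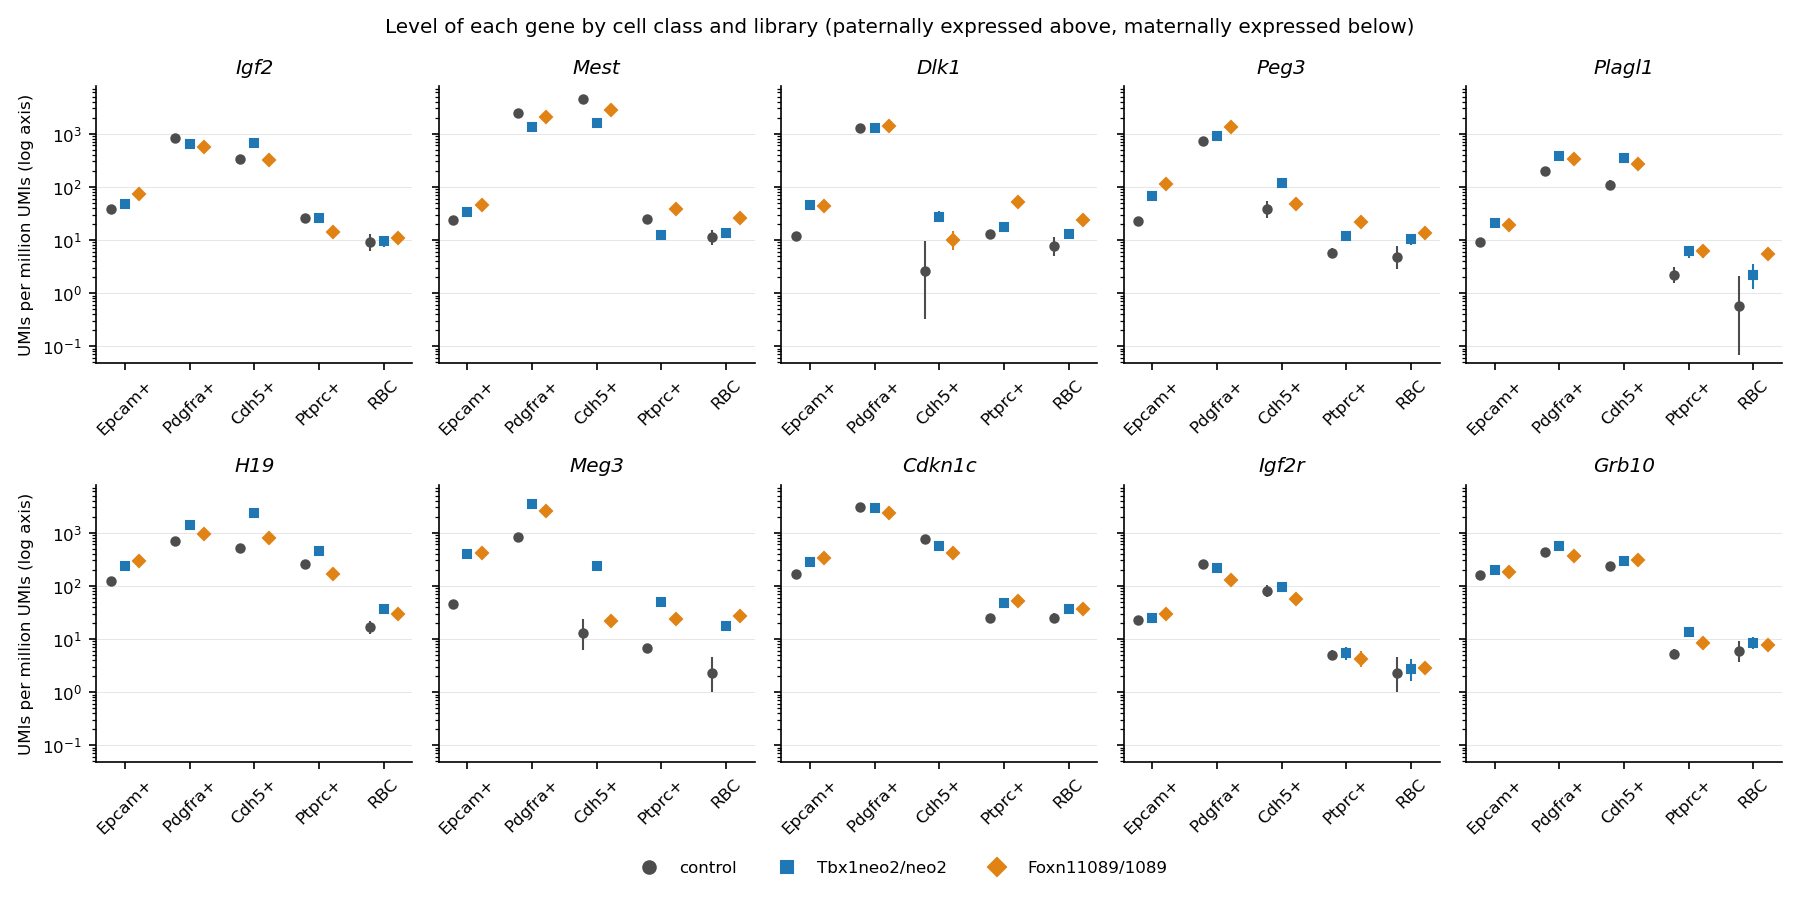
Level of each gene in CPM (log axis) in Epcam-, Pdgfra-, Cdh5- and Ptprc-positive cells and in red blood cells, with 1 point per library and 95% Poisson intervals for counting error. Paternally expressed genes are in the top row and maternally expressed genes in the bottom row. Mest was highest in Cdh5-positive cells, at 4577, 1605 and 2803 CPM in the control, Tbx1neo2/neo2 and Foxn11089/1089 libraries.

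Igf2, the insulin-like growth factor of the fetus, lies on chromosome 7 (142650766 to 142666816, minus strand, GRCm38), with Igf2os on the other strand. In Pdgfra-positive cells it was at 845, 645 and 562 CPM (827 to 863, 637 to 653 and 554 to 569 in the order above). Both other libraries were below the control, by 0.39 and 0.59 on the log2 scale, and neither by 2-fold. In Cdh5-positive cells it was at 333, 674 and 315 CPM. The mesenchymal level was thus 2.54-fold the endothelial level in the control (2.24 to 2.89) and 0.957-fold in the library labelled Tbx1neo2/neo2. Epcam-positive cells held 39.1, 47.7 and 73.8 CPM and Ptprc-positive cells 25.6, 25.6 and 14.4 CPM, against 9.16, 9.53 and 10.8 CPM in red blood cells.

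H19, a noncoding RNA downstream of Igf2 that shares its enhancers and is read from the opposite parental copy, lies on chromosome 7 (142575529 to 142578143, minus strand). It was at 702, 1389 and 954 CPM in Pdgfra-positive, 515, 2314 and 780.4 CPM in Cdh5-positive and 122, 233 and 287 CPM in Epcam-positive cells. The library labelled Tbx1neo2/neo2 was the highest in mesenchymal and endothelial cells, in the latter by 2.17 on the log2 scale over the control (2.02 to 2.32), whereas in epithelial cells the library labelled Foxn11089/1089 was, by 1.24 (1.19 to 1.28). H19 is processed into a microRNA, which the assay did not count and whose RefSeq sequence (GRCm38.p6) is given because it is the known small RNA product of the gene, with the seed, bases 2 to 8, in capitals.
miR-675-5p (chr7:142577112-142577133, minus strand): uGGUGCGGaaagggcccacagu

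Of its mesenchymal level, H19 kept a larger share in hematopoietic cells than any of the other 9 genes. It was at 253, 458 and 166 CPM in Ptprc-positive cells against 16.6, 36.4 and 29.5 CPM in red blood cells. This was 36.0%, 33.0% and 17.4% of its mesenchymal level, while the mesenchymal collagen gene Col3a1 stood at 0.928%, 1.07% and 1.47% of its own and the other 9 genes at 0.774% to 3.96%. With each cell thinned to 2000 UMIs, 29.0%, 37.4% and 19.6% of Ptprc-positive cells held an H19 UMI, against 3.61%, 6.13% and 4.80% of red blood cells. Median depths before thinning were 19855, 48617 and 23082 UMIs in Ptprc-positive and 8610, 18641 and 12501 UMIs in red blood cells. The order of the 3 libraries in Ptprc-positive cells, with the library labelled Foxn11089/1089 lowest, differed from that in epithelial cells, where it was highest. Which hematopoietic types made up the Ptprc-positive cells of each library was not analysed here.

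Igf2r, the receptor that takes Igf2 to the lysosome for breakdown, lies on chromosome 17 (12682406 to 12769664, minus strand), with the noncoding Airn on the other strand. In Pdgfra-positive cells it was at 263, 219 and 127 CPM. The library labelled Foxn11089/1089 held 0.483-fold the control level (0.461 to 0.507) and the library labelled Tbx1neo2/neo2 0.833-fold (0.797 to 0.871). The receptor was at 80.3, 95.5 and 56.5 CPM in Cdh5-positive cells, at 22.7, 24.8 and 29.6 CPM in Epcam-positive cells and at 4.22 to 5.38 CPM in Ptprc-positive cells, beside 2.29, 2.74 and 2.86 CPM in red blood cells.

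Grb10, an adaptor that dampens signalling from the insulin and insulin-like growth factor receptors, lies on chromosome 11 (11930508 to 12038683, minus strand). It was at 159, 197 and 178 CPM in Epcam-positive, 429.8, 554 and 365 CPM in Pdgfra-positive and 238, 297 and 309 CPM in Cdh5-positive cells. No other of the 10 genes was as even between epithelium and mesenchyme: its epithelial level was 37.0%, 35.5% and 48.9% of the mesenchymal level, against 0.926% to 30.1% for the others. In Ptprc-positive cells it was at 5.15, 13.3 and 8.32 CPM, close to the 6.01, 8.37 and 7.76 CPM of red blood cells.

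**Figure D2:**
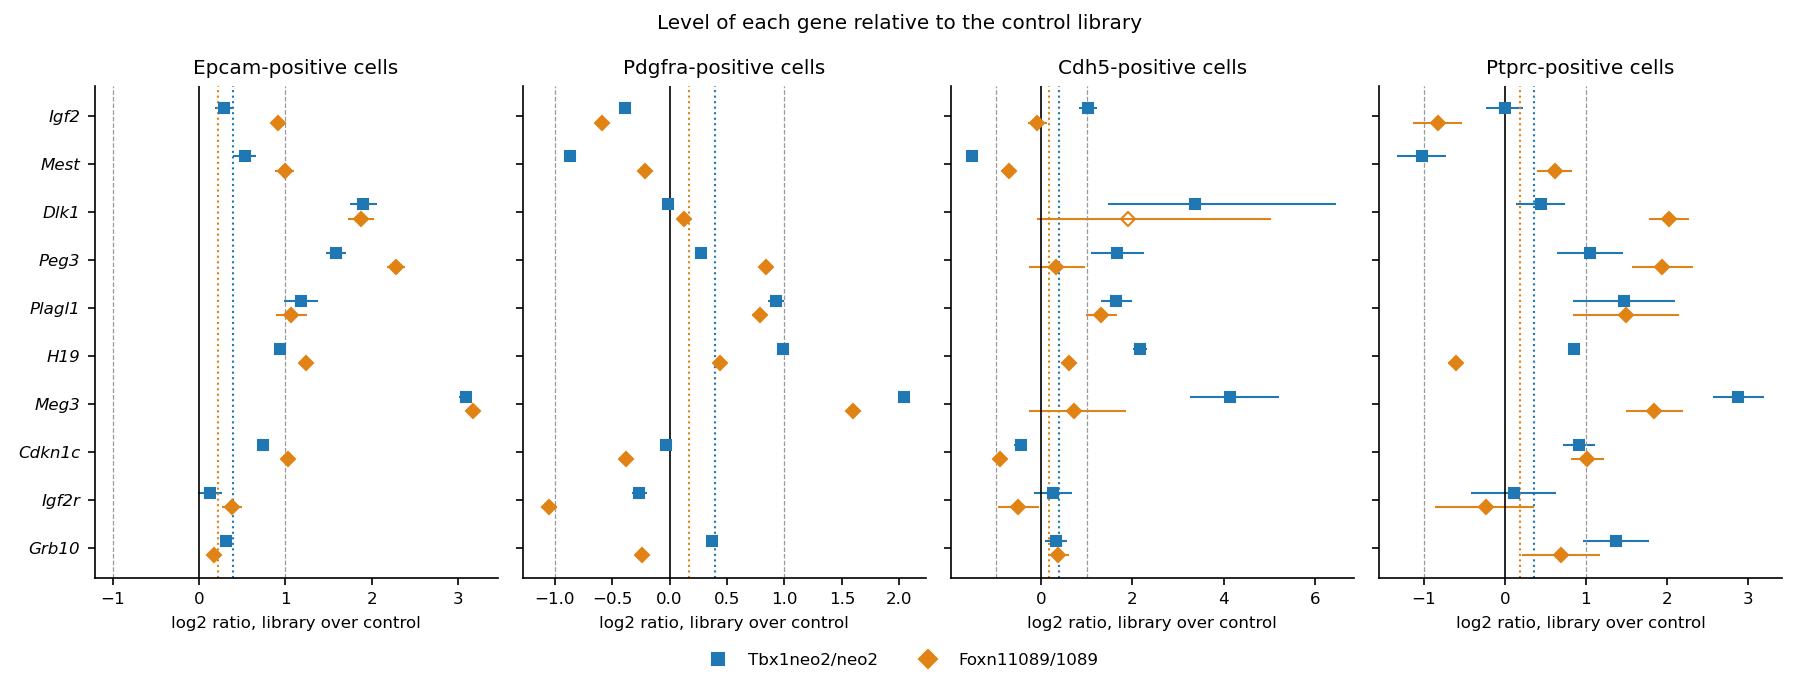
Log2 ratio of each gene to the control for both other libraries, 1 panel per class, with exact 95% intervals for counting error. Dashed lines mark 2-fold, dotted lines the median of all genes, and the open marker a gene under 30 UMIs. Meg3 was at 3.09 and 3.17 in Epcam-positive and at 2.04 and 1.60 in Pdgfra-positive cells.

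Meg3, a long noncoding RNA read from the maternal copy of the Dlk1 locus and known as a brake on cell growth, lies on chromosome 12 (109541001 to 109571726, plus strand). It differed most from the control of the 10 genes in Epcam- and Pdgfra-positive cells. Epcam-positive cells held 46.0, 392 and 415 CPM and Pdgfra-positive cells 834, 3423 and 2521 CPM. Both other libraries were therefore above the control, 8.53-fold (8.10 to 8.99) and 9.03-fold (8.58 to 9.50) in epithelial cells and 4.10-fold (4.01 to 4.20) and 3.02-fold (2.96 to 3.09) in mesenchymal cells. Cdh5-positive cells were at 13.2 CPM (10 UMIs), 233 and 21.7 CPM, and Ptprc-positive cells at 6.62, 48.6 and 23.7 CPM, against 2.29, 17.8 and 27.2 CPM in red blood cells. The rank of the libraries in red blood cells was the same as in epithelial cells, and the part of free RNA in the ratios was not tested.

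The share of epithelial cells with a Meg3 UMI was also higher in both other libraries, which does not separate more cells with the RNA from more RNA per cell. With each cell thinned to 2000 UMIs, 8.35%, 29.4% and 37.4% of Epcam-positive cells had a Meg3 UMI, against 0 of 332 red blood cells (which allows a share of up to 0.904%), 2.23% and 2.11%. Median depths of Epcam-positive cells and red blood cells are those given above. Without thinning the shares in Epcam-positive cells were 29.0%, 66.1% and 70.9%. In the thinned cells the top 5% of Epcam-positive cells held 69.6%, 46.1% and 35.4% of the Meg3 UMIs. The epithelial level of Meg3 was 5.52%, 11.5% and 16.5% of the mesenchymal level, against 0.540%, 1.69% and 1.56% for Col3a1, and the mesenchymal marker list was at 31.3, 115 and 78.5 CPM in these cells.

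Dlk1, a Notch-like membrane protein that holds back differentiation, is read from the paternal copy of the same locus (chromosome 12, 109452823 to 109463336, plus strand). In Pdgfra-positive cells, unlike Meg3, it was nearly level at 1302, 1287 and 1423 CPM, with log2 ratios of -0.02 and 0.13. In Epcam-positive cells it was at 12.1, 45.1 and 44.2 CPM, against 7.73, 12.99 and 23.7 CPM in red blood cells, and the 2 ratios to the control were 3.74-fold (3.35 to 4.17) and 3.67-fold (3.32 to 4.07). Col3a1 in the same cells was at 12.2, 45.8 and 37.2 CPM, so there were 0.990, 0.985 and 1.19 Dlk1 UMIs for each Col3a1 UMI, and the part of mesenchymal RNA in the Dlk1 ratios was not tested. Ptprc-positive cells held 12.7, 17.3 and 51.4 CPM. Cdh5-positive cells held 2 UMIs in the control and 27.4 and 9.92 CPM in the other libraries, too few for more than a wide interval (2.78 to 87.6-fold for the library labelled Tbx1neo2/neo2).

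Peg3, a zinc finger protein of the paternal copy that acts on growth and on maternal behaviour, lies on chromosome 7 (6703892 to 6730431, minus strand). Its order was control, Tbx1neo2/neo2, Foxn11089/1089 in both large classes, with 22.8, 68.2 and 111 CPM in Epcam-positive and 737, 888 and 1317 CPM in Pdgfra-positive cells. The log2 ratios were 1.58 (1.47 to 1.70) and 2.28 (2.18 to 2.39) in epithelial cells, against 0.27 and 0.84 in mesenchymal cells. Cdh5-positive cells held 38.2, 119.8 and 48.1 CPM and Ptprc-positive cells 5.70, 11.8 and 21.9 CPM, the latter beside 4.87, 10.3 and 13.5 CPM in red blood cells.

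Meg3, Dlk1, Peg3 and Plagl1 were called higher in both libraries in Epcam-positive cells. The promoters shown, as the 250 bases before a RefSeq start (GRCm38.p6), are those of Meg3 and Peg3, chosen because they hold the motifs, and the windows of Dlk1 and Plagl1 hold none of the 3 motifs searched. Of the 10 genes 8 had promoters in the table, with 15 starts, and H19 and Cdkn1c were not among them. Capitals mark TGACGTCA, the site of the cyclic AMP factor CREB, TATAAA, the TATA box, and GGGGCCCC, a site known for Plagl1 protein, all searched on both strands. In Meg3 the TATA box is matched on both strands by overlapping copies, which form 1 run of capitals.
Meg3 (chr12:109540746-109540995, plus strand): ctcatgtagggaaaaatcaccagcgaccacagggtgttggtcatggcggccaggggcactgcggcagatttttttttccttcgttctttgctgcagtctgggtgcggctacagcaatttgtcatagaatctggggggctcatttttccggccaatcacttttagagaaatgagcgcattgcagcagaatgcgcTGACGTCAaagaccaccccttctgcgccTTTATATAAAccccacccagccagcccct
Peg3 (chr7:6730420-6730669, minus strand): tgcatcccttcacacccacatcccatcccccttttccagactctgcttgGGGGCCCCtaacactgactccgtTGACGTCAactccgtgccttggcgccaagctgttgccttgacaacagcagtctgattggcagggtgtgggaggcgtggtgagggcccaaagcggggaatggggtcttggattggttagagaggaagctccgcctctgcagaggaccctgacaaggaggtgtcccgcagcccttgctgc

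TGACGTCA began 57 bases before the start in Meg3 and 178 bases before it in Peg3 and was in no other of the 15 windows. Of all 32851 windows of this length 1.55% hold it. GGGGCCCC was in the Peg3 window alone of the 15 and in 0.889% of all windows, and TATAAA in this Meg3 window alone and in 12.4% of all. These are matches of letters and not measured sites.

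Plagl1, a zinc finger factor that restrains the cell cycle and acts on other imprinted genes, lies on chromosome 10 (13060504 to 13131694, plus strand). It was above the control in both libraries and in all 4 classes: 9.11, 20.6 and 19.1 CPM in Epcam-positive, 198, 376 and 341 CPM in Pdgfra-positive, 111, 345 and 274 CPM in Cdh5-positive and 2.21, 6.09 and 6.21 CPM in Ptprc-positive cells. The ratios ran from 1.72-fold to 3.12-fold. Relative to the median of all genes the epithelial ratios, at 0.79 and 0.86 on the log2 scale, no longer reached 2-fold. In red blood cells it was at 0.572, 2.17 and 5.49 CPM.

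Cdkn1c, which encodes the cyclin-dependent kinase inhibitor p57, lies on chromosome 7 (143458339 to 143461050, minus strand). Pdgfra-positive cells held 3013, 2951 and 2320.1 CPM, a ratio of 0.979 (0.967 to 0.992) and 0.770 (0.760 to 0.780), and Cdh5-positive cells 758, 554 and 407 CPM. In Epcam-positive cells the order was the reverse, at 166, 277 and 340.1 CPM. Ptprc-positive cells, at 25.1, 47.3 and 50.8 CPM, were close to red blood cells, at 25.2, 36.2 and 37.0 CPM.

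Cdkn1c had a lower level in mesenchymal cells with transcripts of the G2 and M phases in every library, within 2-fold. Cells with at least 3 UMIs of 10 genes of the G2 and M phases numbered 202, 269 and 622 of the thinned Pdgfra-positive cells, against 760, 1137 and 1922 others. Cdkn1c was at 2378 CPM in these against 3255 CPM in the rest in the control, at 2183 against 3210 CPM in the library labelled Tbx1neo2/neo2 and at 1720 against 2601 CPM in the library labelled Foxn11089/1089, log2 ratios of -0.45, -0.56 and -0.60. The cells with these transcripts were also deeper before thinning, with medians of 13167 against 9150.0, 35035 against 24043 and 19397 against 13003 UMIs, and the part of depth was not tested. Meg3 lay below in the same way, at -0.61, -0.91 and -0.47, and Dlk1, Grb10, Plagl1, Igf2, H19 and Igf2r also had negative ratios in all 3 libraries, while Mest was at 0.18, -0.08 and 0.19. In Epcam-positive cells, where 44.1%, 47.9% and 37.4% of cells had these transcripts, Cdkn1c had ratios of -0.10, -0.03 and -0.07. The ratios of all genes over this split were not computed, so these values do not set Cdkn1c or the other genes followed apart from genes at large.

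**Figure D3:**
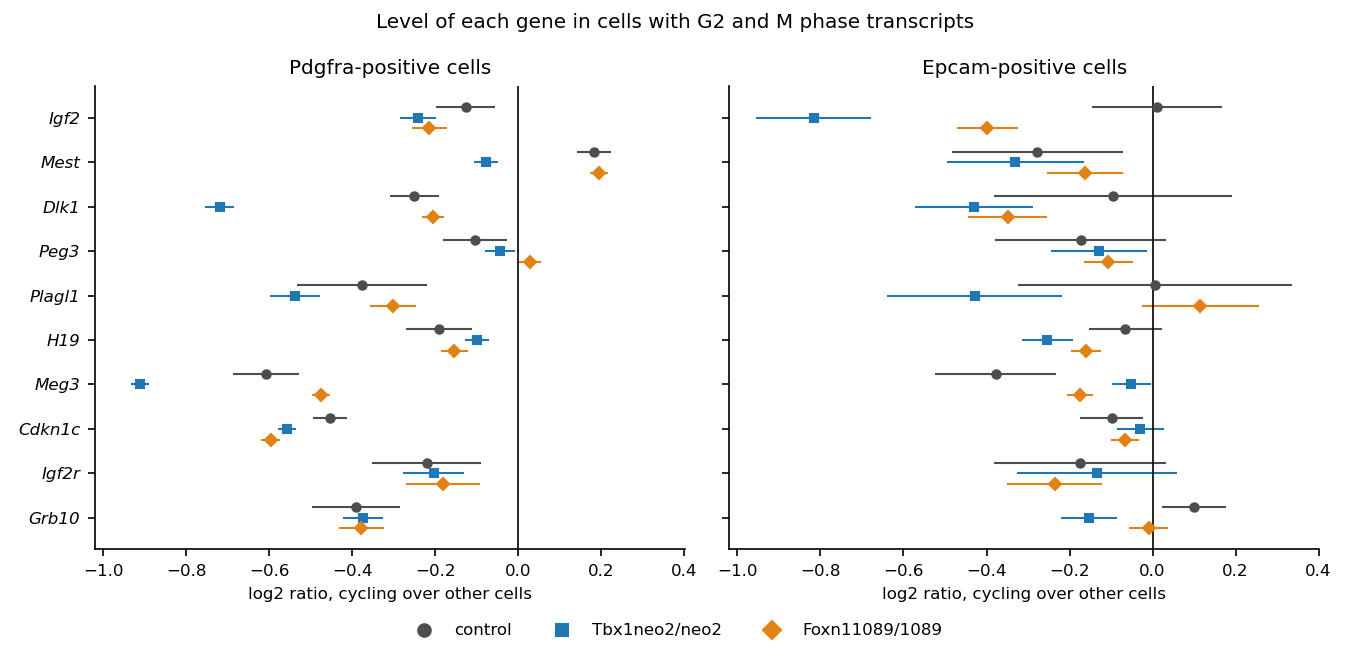
Log2 ratio of each gene between cells with and without at least 3 UMIs of the G2 and M phase genes, in Pdgfra- and Epcam-positive cells split after thinning to 2000 UMIs, with 1 point per library and 95% intervals for counting error. In Pdgfra-positive cells Cdkn1c was at -0.45, -0.56 and -0.60, and in Epcam-positive cells at -0.10, -0.03 and -0.07.

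Mest, a hydrolase-like protein of the paternal copy that is typical of embryonic mesoderm, lies on chromosome 6 (30723547 to 30748465, plus strand) and overlaps Copg2 on the other strand. It was at 4577, 1605 and 2803 CPM in Cdh5-positive and at 2409.8, 1325 and 2083 CPM in Pdgfra-positive cells, with the control first and the library labelled Tbx1neo2/neo2 last in both. That library held 0.351-fold the control level in endothelial cells (0.335 to 0.367) and 0.550-fold in mesenchymal cells (0.542 to 0.559), and relative to the median of all genes the mesenchymal ratio, -1.26 on the log2 scale, passed 2-fold too. Mest carries a microRNA in an intron, not counted by the assay and shown, with its seed in capitals, as the second known product of the gene (RefSeq, GRCm38.p6).
miR-335-5p (chr6:30741314-30741336, plus strand): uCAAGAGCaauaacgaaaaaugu

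A smaller share of endothelial cells held Mest in the library labelled Tbx1neo2/neo2. After thinning, 42 of 44, 43 of 87 and 69 of 79 Cdh5-positive cells had a Mest UMI (95.5%, 49.4% and 87.3%), against 1.81%, 1.67% and 3.14% of red blood cells. Median depths of Cdh5-positive cells were 16970, 19108 and 23579 UMIs. In those with under 2 UMIs of each of the mesenchymal and pericyte lists after thinning, Mest was at 4602, 1815 and 2801 CPM, in the same order. Over 40, 82 and 75 Cdh5-positive cells, thinned as under Other observations, Spearman's rho of Mest with H19 was 0.063, -0.656 and -0.051. It was 0.034, -0.456 and 0.041 with Igf2 and -0.071, -0.385 and -0.077 with Meg3. In the library labelled Tbx1neo2/neo2 rho of Mest with the other genes followed was 0.014 to 0.207. In that library's cells lower Mest thus went with higher H19, Igf2 and Meg3. Whether the class held distinct groups was not tested. In Epcam-positive cells Mest was at 23.2, 33.5 and 46.2 CPM and in Ptprc-positive cells at 24.6, 12.2 and 37.7 CPM, against 11.4, 13.4 and 25.5 CPM in red blood cells.

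The Epcam-positive cells were a mixture, and its makeup differed between libraries. The parathyroid list was at 868, 0.7 and 5827 CPM and the thyroid list at 2.2, 199 and 3.3 CPM. Cells with at least 2 UMIs of the parathyroid list numbered 24, 0 and 334 after thinning, and those of the thyroid list 3, 68 and 6. Parathyroid-marked cells of the control and the library labelled Foxn11089/1089 held 298 and 129.7 CPM of Igf2, 698 and 446 CPM of H19 and 268 and 339.5 CPM of Peg3. Thyroid-marked cells of the library labelled Tbx1neo2/neo2 held 1012 CPM of Meg3 and 150.3 CPM of Dlk1.

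Cells with under 2 UMIs of each of the parathyroid, thyroid, skeletal muscle and mesenchymal lists after thinning numbered 1988, 667 and 3513. These cells could still hold some of the transcripts. In them Meg3 was at 42.0, 273 and 413 CPM, log2 ratios of 2.70 and 3.30, and Peg3 at 18.9, 53.4 and 75.5 CPM, both past 2-fold. Dlk1 was at 8.57, 18.7 and 29.9 CPM, ratios of 1.13 and 1.80. These Dlk1 levels lay close to its 7.73, 12.99 and 23.7 CPM in red blood cells, which had the same order. Meg3 and Peg3 were past 2-fold in both libraries in these cells, above their red blood cell levels, and Cdkn1c, at 0.52 and 0.98, did not reach it.

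**Figure D4:**
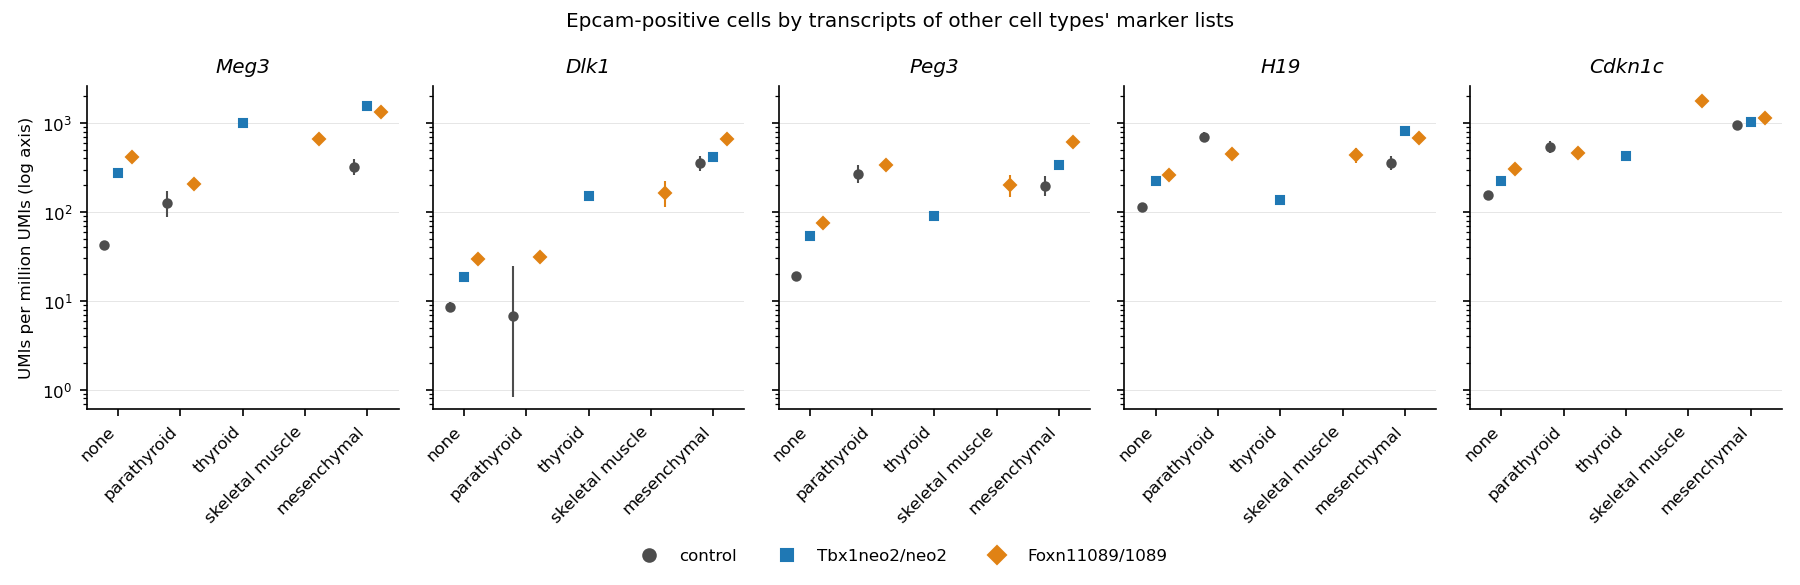
Levels of Meg3, Dlk1, Peg3, H19 and Cdkn1c in CPM in Epcam-positive cells (log axis), split after thinning to 2000 UMIs by at least 2 UMIs of markers of parathyroid, thyroid, skeletal muscle and mesenchyme, for subsets of at least 10 cells. The group labelled none has under 2 UMIs of each list. In this group Meg3 was at 42.0, 273 and 413 in the control, Tbx1neo2/neo2 and Foxn11089/1089 libraries.

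A wider list of imprinted genes that excludes these 10 lay on both sides of the control. In Epcam-positive cells 7 of 28 tested were called higher and 1 lower in the library labelled Tbx1neo2/neo2, and 10 of 30 higher and 5 lower in the library labelled Foxn11089/1089, against 16.6% and 15.0% of all genes higher and 4.91% and 9.03% lower. In Pdgfra-positive cells 3 were higher and 2 lower in each, of 28 and 29, against 18.5% and 5.81% of all genes higher and 3.86% and 4.43% lower. Their median log2 ratio was 0.65 and 0.67 in Epcam-positive and 0.33 and 0.19 in Pdgfra-positive cells. Kcnq1ot1, the noncoding RNA of the Cdkn1c domain, was called higher in both libraries in all 4 classes, with 107, 383 and 333 CPM in Epcam-positive and 237, 875 and 579 CPM in Pdgfra-positive cells. Nnat, a membrane proteolipid, was at 17.3, 56.8 and 74.9 CPM in Epcam-positive cells. Also called higher there in both libraries were Usp29 (log2 1.47 and 1.70), the neighbour of Peg3, Airn (1.95 and 2.56), the antisense RNA of Igf2r, Phlda2 (3.09 and 1.02), a restraint on placental growth, and Mirg (1.76 and 1.68), a noncoding RNA of the Meg3 locus. Gnas, a subunit of stimulatory G proteins, was at 1078 and 2832 CPM in the control and the library labelled Foxn11089/1089. On the lower side in Epcam-positive cells of the library labelled Foxn11089/1089 were Peg12 (log2 -1.64), Ascl2 (-1.55), a transcription factor of the placenta, and Peg10 (-1.06). Slc22a3, an organic cation transporter named after its values were seen, had 35 UMIs in the control, 2 in the library labelled Tbx1neo2/neo2, where it was the only gene of the list called lower, and 13 in the library labelled Foxn11089/1089. Peg10, a retrotransposon-derived gene, was also lower in Pdgfra-positive cells, at 73.3, 21.3 and 30.2 CPM. In Cdh5-positive cells 6 of 18 were higher and 3 lower, and 2 of 18 higher and 2 lower, against 25.3% and 9.72% of all genes higher and 4.75% and 4.89% lower. In Ptprc-positive cells 3 of 19 and 3 of 17 were higher and 1 lower in each, against 14.9% and 11.4% higher and 3.0% and 5.96% lower. Relative to the median of all genes several of these counts changed. In the library labelled Tbx1neo2/neo2 they were 7 higher and 3 lower in Epcam-positive and 1 and 4 in Pdgfra-positive cells. They were 4 and 4 in Cdh5-positive and 3 and 1 in Ptprc-positive cells. The library labelled Foxn11089/1089 had 8 and 6, 3 and 2, 2 and 3, and 3 and 3 in the same order of classes. The share of all genes at 2-fold from that median was not computed.

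Genes of insulin-like growth factor signalling, a list of 8 (Igf1, Igf1r, Insr, Irs1, Irs2 and Igf2bp1 to Igf2bp3), had from 0 to 3 members called in a class and library. In Pdgfra-positive cells Igf1r, the receptor through which Igf2 signals, was called higher in the library labelled Tbx1neo2/neo2, at 105 against 35.9 CPM, and none of the list was called in the library labelled Foxn11089/1089. In Epcam-positive cells Igf1r was at 146 against 70.3 CPM in the library labelled Tbx1neo2/neo2, and Irs2, a docking protein of the receptor, was at 15.0 against 34.5 CPM in the library labelled Foxn11089/1089. In Ptprc-positive cells Igf1, the sister growth factor, was at 10.8, 32.1 and 56.9 CPM, called higher in both libraries, and 3 of 7 genes were higher in the library labelled Tbx1neo2/neo2 (Igf1, Igf2bp2 at 30.7 against 13.2 CPM, and Irs2 with 27 against 22 UMIs), against 14.9% of all genes. In Cdh5-positive cells 2 of 6 were higher in that library, Igf1r at 108 against 42.1 CPM and Insr, the insulin receptor, with 46 against 4 UMIs, and 1 of 6 in the library labelled Foxn11089/1089, Insr with 45 against 4 UMIs, against 25.3% and 9.72% of all genes. Relative to the median of all genes, several calls of the list in the library labelled Tbx1neo2/neo2 were lost. Counts higher were then 0 in Epcam-positive, 1 in Cdh5-positive and 1 in Ptprc-positive cells. Pdgfra-positive cells had 1 higher and 1 lower. The counts in the library labelled Foxn11089/1089 stayed the same. The share of all genes at 2-fold from that median was not computed.

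Across the 12 profiles of 4 classes in 3 libraries, the profiles that most resembled each other among the 10 genes were Igf2r and Cdkn1c (Pearson r of log2(CPM + 1) 0.978), and the least alike were Mest and Dlk1 (0.320). Igf2 and H19 had r = 0.850, Dlk1 and Meg3 0.871 and Meg3 and Peg3 0.913. Of all other genes with at least 1000 UMIs, Gpr180 (0.991) was most like Plagl1, Nrep (0.991) most like Grb10, B4galt2 (0.988) most like Igf2r and Apaf1 (0.970) most like H19. Vamp2 (0.995) was most like Meg3, Prrx1 (0.992) most like Dlk1, Smarca2 (0.990) most like Peg3, Ebf1 (0.989) most like Cdkn1c, Phldb1 (0.984) most like Igf2 and Rhoj (0.982) most like Mest. The points share libraries and classes, so these values only describe likeness.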

How the data were processed

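The deposited files hold raw UMI counts per gene and cell barcode, which the authors made with Cell Ranger 3.0.0 on mm10, and they used Seurat downstream, per the submitters' processing notes. From these counts, cells with at least 200 genes and at most 20% mitochondrial UMIs were kept. No doublet caller was run, but cells with more than 1 of the 4 markers were left out. UMIs were summed per class and library and divided by the class total (CPM). Intervals are exact Poisson, Clopper-Pearson or conditional binomial at 95%. Because each genotype has 1 library, no test was made. Genes with at least 30 UMIs over both libraries were compared at 2-fold, and shares were taken after thinning to 2000 UMIs. The ratio script was tested on simulated data.

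Named genes were the 10 genes and genes of the wider imprinted and signalling lists past 2-fold with at least 100 UMIs. The most alike profiles were also named, and examples are printed. Slc22a3 in Epcam-positive, Insr in Cdh5-positive and Irs2 in Ptprc-positive cells had fewer UMIs than that minimum and were named all the same. The genes and lists were chosen with earlier results of these data known. Of the wider list, Peg13 and Rian were not analysed here. Gene coordinates are GENCODE on GRCm38. Python 3.11.15, numpy 2.4.6, scipy 1.17.1, pandas 2.3.3 and matplotlib 3.10.9 were used.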

Additional observations from a re-analysis of the deposited data

Results flagged for a closer look

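Listed here are genes whose ratio to the control had opposite signs in different cell classes of the same library, with at least 1 of the ratios past 2-fold, both intervals away from 0 and both signs kept relative to the median of all genes. There were 5 such genes, and the difference between classes was not tested. In the library labelled Tbx1neo2/neo2, Igf2 was at 1.02 on the log2 scale in Cdh5-positive and at -0.39 in Pdgfra-positive cells. Mest was at 0.53 in Epcam-positive, -1.51 in Cdh5-positive and -1.02 in Ptprc-positive cells of that library, the last from levels close to those of red blood cells. In the library labelled Foxn11089/1089, H19 was at 1.24 in Epcam-positive and -0.61 in Ptprc-positive cells, and Igf2r at 0.38 in Epcam-positive and -1.05 in Pdgfra-positive cells. Cdkn1c was at 1.04 in Epcam-positive and 1.02 in Ptprc-positive cells of that library, and at -0.38 in Pdgfra-positive and -0.90 in Cdh5-positive cells. Its Ptprc-positive level was close to that of red blood cells.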

How the results depend on the processing

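No paired analysis was possible because each genotype has 1 library, and for the same reason no library could be left out. Over the 11 alternatives Meg3, Dlk1 and Peg3 stayed past 2-fold in Epcam-positive cells of both libraries, Meg3 in Pdgfra-positive cells of both (1.64 to 2.16 and 1.40 to 1.65 on the log2 scale), and H19 and Mest in Cdh5-positive cells of the library labelled Tbx1neo2/neo2. Plagl1 in Epcam-positive cells stayed past it in 9, Cdkn1c in the library labelled Foxn11089/1089 in 8 and Igf2r in Pdgfra-positive cells in 10. Of the log2 ratios recomputed, 533 moved by less than their interval, 344 by more, and 1 called ratio reversed: Mest in Ptprc-positive cells of the library labelled Tbx1neo2/neo2 went from -1.02 to 0.16 when every cell had the same weight. The cause of the shifts was not tested.

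Counts of the 10 genes past 2-fold in the library labelled Tbx1neo2/neo2 moved in Ptprc-positive cells from 5 to 3 with 2 marker UMIs, to 3 with 2 marker UMIs and other markers allowed at lower counts, to 1 with 2 further markers and to 3 after thinning. In Pdgfra-positive cells they moved from 1 to 2 with equal weight per cell, thinning, size factors and relative to the median of all genes. In Cdh5-positive cells they moved from 7 to 4 after thinning. There Dlk1 kept 0 and 2 UMIs and Peg3 2 and 20 in the control and that library, too few for a call. The Peg3 log2 ratio itself was 2.34 after thinning, against 1.65 before. In the library labelled Foxn11089/1089 the counts moved in Cdh5-positive cells from 1 to 4 with other markers allowed and to 5 with equal weight. In these cells they also moved to 2 with size factors and relative to the median. In Pdgfra-positive cells they moved from 2 to 1 without cells over 1% hemoglobin. In the wider list, thinning moved the count from 8 to 3 in Epcam-positive, 9 to 1 in Cdh5-positive and 4 to 2 in Ptprc-positive cells of the library labelled Tbx1neo2/neo2, and from 5 to 3 in Pdgfra-positive and 4 to 1 in Cdh5-positive cells of the library labelled Foxn11089/1089. There, equal weight gave 7 and a minimum of 100 UMIs gave 2 in Cdh5-positive cells, and in Ptprc-positive cells the count moved from 4 to 9 with other markers allowed and to 1 with a minimum of 100 UMIs. Leaving out cells with markers of another type was chosen after seeing the data. Cdh5-positive cells were few, 48 in the control, which limits all their values. The counts past 2-fold given here pool higher and lower genes. The share of all genes past 2-fold was not computed under the other settings, so the counts show only how the calls moved. Thinning also leaves fewer UMIs, so a count can fall because genes no longer reach the UMI minimum, in the wider list too.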

Other observations

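Within Pdgfra-positive cells, thinned to 5000 UMIs, several pairs of the 10 genes had their highest rank correlation over cells in the library labelled Tbx1neo2/neo2. That library was the most deeply sequenced per cell, and its Pdgfra-positive cells also had the highest pericyte and cartilage lists. Spearman's rho over cells, given as a description, was 0.252, 0.638 and 0.291 for Dlk1 and Meg3, 0.245, 0.515 and 0.352 for Meg3 and Plagl1, 0.053, 0.420 and 0.167 for Mest and Dlk1, and 0.179, 0.366 and 0.271 for Igf2 and H19. H19 and Dlk1 were at 0.067, -0.211 and 0.159. In the 35 cartilage-marked Pdgfra-positive cells of that library Dlk1 was at 162 CPM, Mest at 544 CPM and Meg3 at 1419 CPM. Malat1 and Neat1, nuclear noncoding RNAs looked at after values had been seen, had log2 ratios in Pdgfra-positive cells of 0.57 and -0.19 and of 1.78 and -0.13.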
